A study of Drosophila melanogaster with 24 samples.

Results

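The genes of the cytosolic ribosome were followed in 24 libraries of Drosophila melanogaster total RNA. Every protein-coding gene whose symbol begins with RpL or RpS and continues with a digit or with P was taken, which gave 92 members among 17545 counted genes. By symbol, 51 of these were counted with the large subunit, 38 with the small subunit and 3 with the acidic stalk (RpLP0, RpLP1 and RpLP2). The 51 include RpL24-like and RpLP0-like, whose proteins resemble yeast assembly factors. Paralog families (a and b forms, or a form named "like") hold 27 members in 13 families, which make 14 pairs, and 65 members have no paralog by name. The gene sta, which encodes the small subunit protein known as RpSA, carries another kind of symbol and is not a member.

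The 8 groups cross the indirect flight muscle (IFM) or the ventral nerve cord (VNC), pupae at 30 h after puparium formation or adults at 15 days, and solvent control or methylmercury (MeHg), with 3 replicates in each. Exposed animals ate methylmercury chloride at 5 µM from the first larval instar, controls ate the solvent DMSO at 0.01%, and adults of both treatments lived on food without MeHg after eclosion. Each replicate pooled tissue of 50 Methacarn-fixed animals of mixed sex, and the labels name no strain or transgene. The replicates of adult MeHg groups carry the numbers 1, 3 and 4. Sample titles also carry a tag that the labels do not explain. No tag occurs in both pupal and adult libraries, and replicate 4 of the adult MeHg groups has a tag of its own. Library totals ran from 12414582 to 39254902 counts, and the lowest was replicate 2 of the MeHg pupal VNC.

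A ribosome joins a large and a small subunit, each built from ribosomal RNA and one copy of most ribosomal proteins, and the stalk carries several copies of P1 and P2 on P0. Because the subunits need their proteins in fixed proportions, ribosomal protein genes are usually transcribed and translated together, and growing cells make more of them. Several fly paralogs are known mainly from the germ line, and some proteins named after a ribosomal protein act in ribosome assembly instead.

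The labelled tissues matched their markers. Summed as counts-per-million values (CPM), the muscle list was at 63877 to 85550 CPM in control IFM and 495 to 1216 CPM in control VNC, and the neuron list stood at 181 to 295 CPM and 5654 to 13344 CPM. In control VNC the neuron list rose from 5654 to 5951 CPM in pupae to 12539 to 13344 CPM in adults, and the glia list from 921 to 978 CPM to 4255 to 4332 CPM. Other cell types were also read in the dissected muscle. In control IFM the fat body list rose from 7294 to 14448 CPM in pupae to 57384 to 69728 CPM in adults, the haemocyte list from 185 to 235 CPM to 2301 to 3726 CPM, and the 3 gut genes from 0 to 1.95 CPM to 417 to 6129 CPM. Muscle marker levels overlapped between those stages (71653 to 85550 CPM in pupae and 63877 to 84933 CPM in adults). In bulk tissue, fewer cells of a type and less RNA per cell cannot be told apart, and the part of these other cells in the results was not tested.

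The members took their largest share of the library in pupal muscle. In the control pupal IFM they held 9.58%, 9.93% and 8.43% of all counts, and with MeHg 8.72%, 9.60% and 8.98%. In the control pupal VNC the shares were 4.41%, 4.14% and 4.50%, and with MeHg 4.31%, 6.95% and 4.73%. Adult shares were low in both tissues, at 3.02% to 3.90% over the 6 IFM libraries and 3.31% to 3.79% over the 6 VNC libraries. Pupal muscle therefore stood above every other group with no overlap, adult muscle and adult nerve cord overlapped, and 1 pupal VNC library with MeHg stood apart from the other 5.

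**Figure D1:**
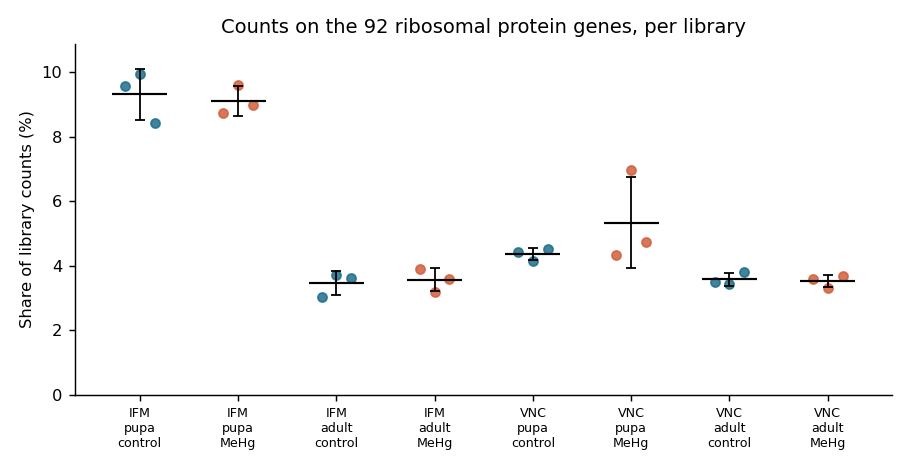
Share of all library counts (%) on the 92 ribosomal protein genes in each of 8 groups (blue points, control; orange points, MeHg; black line and bars, mean ± SD of 3 libraries). The 6 pupal IFM libraries sit between 8.43% and 9.93%, and replicate 2 of the MeHg pupal VNC sits at 6.95% among values of 4.14% to 4.73%.

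Levels per gene spanned a wide range. Per exonic kilobase and averaged over the 8 groups, RpL41, which encodes one of the smallest known proteins, led with 4225 CPM per kb, followed by RpL23 at 1718 and RpS27A, a fusion of ubiquitin with a ribosomal protein, at 1589. At the other end of the 81 members with at least 20000 counts in all were RpL24-like (187 CPM per kb), RpL34a (114) and RpL22 (113), a protein with a histone H1-like extension in flies. RpS15Ab and RpLP0-like were lower (34.6 and 27.2 CPM per kb), and the other 9 members, all minor paralogs, were lower still. The 3 lowest were RpS28-like at 0.130, RpS28a at 0.0394 and RpL7-like at 0.000628 CPM per kb. Levels of near-identical copies rest on how reads that fit more than one gene were counted, which is not given in the sources used here. The same holds for RpL22, which shares 377 of its 1100 exonic bases with the gene lncRNA:CR42491 on the same strand.

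Members were short, with a median exonic length of 901 bases (288 to 3835) against 1736 for all protein-coding genes. This bears on the comparisons, since fold changes followed gene length in several of them. Spearman's rho between exonic length and fold change was 0.41 for MeHg in pupal IFM (7728 genes at 5 CPM or more) and -0.31 and -0.36 for IFM against VNC in pupae and adults (8333 genes). Genes of a library share its RNA quality and depth, so the coefficients are descriptions only. Small nucleolar RNA (snoRNA) genes lie inside 28 members, up to 14 in 1 host and 74 in all, and all 28 hosts are among the 81 abundant members.

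The stage comparison asks how the members differ between developing and mature tissue. Stage and title tag cannot be told apart in either tissue. In control IFM, 82 of 84 tested members were called, 81 lower and 1 higher in adults, against 74.4% of all genes tested (36.7% lower and 37.7% higher). Their median log2 fold change was -1.08, against -0.04 for all genes. Calls here and below have an adjusted p under 0.05 in edgeR's quasi-likelihood test with p-values adjusted by Benjamini-Hochberg across every gene in the fit. The fall included each stalk gene, all but 1 of the 47 tested genes counted with the large subunit and 32 of 34 counted with the small subunit. Median changes were -1.07 for the large and -1.13 for the small subunit. The 28 abundant snoRNA hosts had a median of -1.31 and the other 53 abundant members -1.02.

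RpS2, a small subunit protein at the entrance of the mRNA channel, fell most. It was read at 1595, 1739 and 1516 CPM in the control pupal IFM and at 429, 505 and 398 CPM in adult IFM, groups that did not overlap, with a log2 fold change of -1.88 ± 0.14 (SE, adjusted p 2.58e-07). RpLP0-like fell by 1.78 ± 0.17, RpL10Ab by 1.76 ± 0.17 and RpS9, an early-binding small subunit protein, by 1.75 ± 0.16, all on the log2 scale. RpS6, the substrate of S6 kinase, fell by 0.81 ± 0.11. Within the stalk, the base RpLP0 fell by 0.66 ± 0.11, RpLP1 by 1.02 ± 0.14 and RpLP2 by 1.38 ± 0.19. The estimated fall thus varied between genes whose proteins sit together, and the differences between these genes were not tested.

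RpL24-like was the member that rose. Its protein resembles yeast Rlp24, a factor that binds the large subunit during assembly and is later replaced by RpL24. The gene (FBgn0037899; 3R, 11430740 to 11431582, minus strand, BDGP6, 2 exon blocks) was read at 116, 126 and 117 CPM in control pupal IFM and at 236, 179 and 227 CPM in adult IFM. The adult libraries lay above the pupal ones, and the log2 fold change was 0.83 ± 0.15 (adjusted p 0.00031).

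In control VNC the stage difference was smaller and mixed. There 31 of 86 tested members were called, 26 lower and 5 higher in adults, against 64.3% of all genes tested (32.6% lower and 31.7% higher), with a median log2 fold change of -0.20 for members and 0.05 for all genes. With the length trend removed, the median was -0.09 for members and 0.08 for all genes. The share of members called was below the share of all genes. RpL24-like again rose most, from 55.4, 56.9 and 69.1 CPM in pupae to 179, 171 and 215 CPM in adults (log2 1.61 ± 0.25, adjusted p 0.000162).

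RpL5, which enters the ribosome bound to 5S rRNA and RpL11, rose in the adult VNC and fell in the adult IFM. In VNC it was read at 711, 628 and 735 CPM in control pupae and 1123, 1055 and 1159 CPM in control adults (log2 0.65 ± 0.11, adjusted p 0.000194). In IFM it went from 1761, 1553 and 1680 CPM to 1010, 1303 and 1374 CPM (log2 -0.44 ± 0.12, adjusted p 0.00722). RpS30, made as a fusion with a ubiquitin-like peptide, RpL29 and RpL35 also rose in adult VNC, by 0.50 ± 0.15, 0.49 ± 0.11 and 0.42 ± 0.10, and all 3 fell in adult IFM. The call for RpS30 in VNC was lost without control adult replicate 3 (0.36).

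The largest fall in the VNC was in RpS13, a small subunit protein near the bridges between subunits. It was read at 548, 501 and 593 CPM in control pupae and at 239, 326 and 234 CPM in control adults, with no overlap, a log2 fold change of -1.08 ± 0.11 (adjusted p 5.29e-06). RpL27A and RpLP1 fell as well, with -0.76 ± 0.15 and -0.76 ± 0.17. Of the other stalk genes, RpLP0 had -0.08 ± 0.08 and RpLP2 -0.49 ± 0.30, neither past the threshold.

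**Figure D2:**
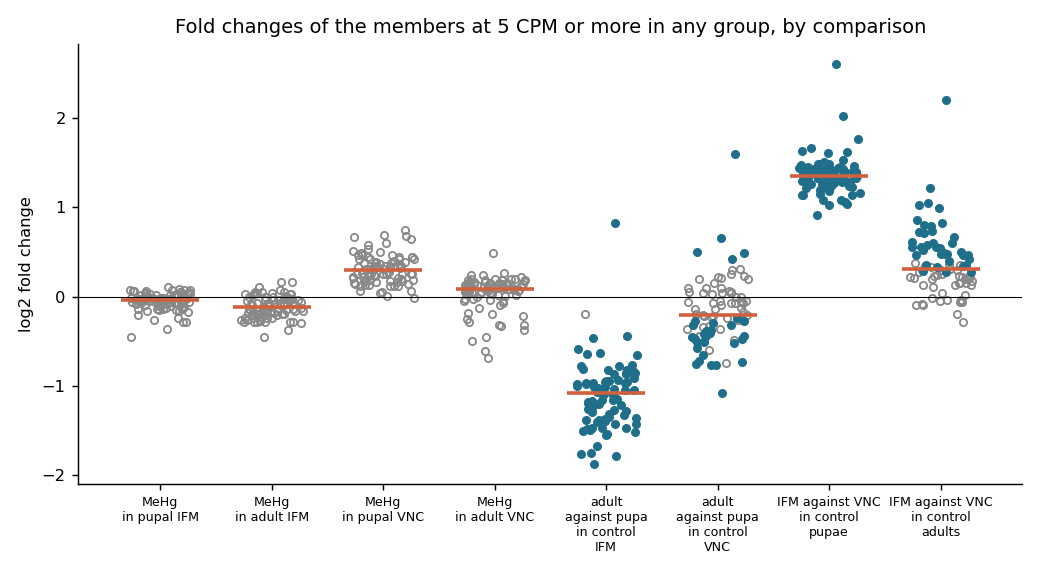
log2 fold changes (y axis) of members with a mean of at least 5 CPM in any group, for each of 8 comparisons (x axis); filled blue points were called at adjusted p under 0.05, open grey points were not, and the orange line is the median of all members tested. Members lie below 0 in adult against pupal IFM (median -1.08) except RpL24-like at 0.83, above 0 in pupal IFM against VNC (median 1.36), and no point is filled in the 4 MeHg comparisons.

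The difference between the tissues in the stage effect was tested directly in controls. It was called for 77 of 86 members, all with the more negative change in IFM, against 53% of all genes (26.6% more negative in IFM). The median difference in log2 fold change was -0.98. It was most negative for RpLP0-like (-2.14 ± 0.24), RpS2 (-1.81 ± 0.31), RpL22 (-1.73 ± 0.36) and RpL41 (-1.69 ± 0.26). Of the 9 members not called, RpS15Ab was at 0.18 ± 0.21, RpL10 at -0.25 ± 0.15 and RpLP1 at -0.32 ± 0.22.

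In control pupae, 83 of 86 tested members were higher in IFM than in VNC, against 60% of all genes tested (25.9% higher in IFM). The median was 1.36, against -0.11 for all genes, and the middle 50% of members ran only from 1.26 to 1.43. The 3 not called were minor paralogs, RpL22-like and RpL10Aa among them. RpLP0-like and RpS15Ab led, with 2.61 ± 0.18 and 2.03 ± 0.15, followed by RpLP2 (1.77 ± 0.25) and RpS20 (1.67 ± 0.24), a small subunit protein of the head. With the length trend removed the median was 0.85 for members and -0.03 for all genes. Scaling by RLE moved the median of all genes by 0.15 in this comparison and by 0.13 in adults, and relative to all genes the members' median was 1.46 with TMM and 1.49 with RLE.

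In control adults, 40 members were higher and 1, a minor paralog, lower in IFM, against 73% of all genes tested (35% higher and 38% lower). The median was 0.31, or 0.44 relative to all genes. The direction followed the length correction. With the length trend removed, the median was -0.34 for members and -0.135 for all genes, so no direction can be given for the members as a group in adults. Without control VNC replicate 3, 62 members were called and the median was 0.54. The share of all genes called in that fit is not given here, so the 62 is not read as a trait of the members. RpS15Ab led (2.21 ± 0.15), followed by RpLP1 (1.22 ± 0.16), RpL10 (1.05 ± 0.11), a large subunit protein that joins late in assembly, and RpS3A (1.03 ± 0.13).

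Genes that make and use ribosomes were listed for comparison. In control adult IFM, 25 of 26 genes listed under ribosome biogenesis were lower and 1 higher than in pupae (median -1.74), and 31 of 38 translation factors were lower and 4 higher (median -1.04), where 36.7% of all genes were lower and 37.7% higher. The list holds Rrp1 (-3.58 ± 0.24), a symbol that in flies names a DNA repair endonuclease; leaving it out, a choice made after seeing the data, gave 24 of 25 lower and 1 higher (median -1.71). The largest other changes were in Nop56, a core snoRNP protein (-3.13 ± 0.13), and Nop60B, the pseudouridine synthase (-3.11 ± 0.12). In pupae, 25 of the 26 were higher in IFM than in VNC and 1, Rrp1, was lower (median 2.02, or 2.07 over the other 25), where 25.9% of all genes were higher and 34.1% lower. In the adult VNC 6 of the 26 were higher and 6 lower than in pupae (median 0.02; 6 and 5 without Rrp1), shares below those of all genes (31.7% higher and 32.6% lower), and 24 of 38 translation factors were lower and 3 higher. Among 17 regulators, 9 were higher and 7 lower in adult IFM, against 37.7% and 36.7% of all genes, led by REPTOR (3.63 ± 0.13), a transcription factor held back by TOR signalling, and Xrp1 (3.10 ± 0.10), which responds to loss of ribosomal proteins. In the adult VNC 6 regulators were higher, near the 31.7% of all genes, and 1 lower, with REPTOR at 2.37 ± 0.12 and Xrp1 at 1.32 ± 0.11. In pupae, 8 of the 17 regulators were higher and 5 lower in IFM than in VNC, against 25.9% and 34.1% of all genes. Among the higher was Myc, an activator of ribosome production (2.08 ± 0.22).

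Members also moved against each other. For the 81 abundant members, the log2 level was set against the median member of the same library, which takes out the common level and the scaling. The range of the 8 group means had a median of 0.49 over members, and 41 members stayed under 0.5. RpS15 departed least (0.10) and RpL24-like most (2.28), then RpS13 (1.48), RpL5 (1.18), RpL10Ab (1.07) and RpL13 (1.00). RpL5, RpL29 and RpS30 gained on the median member from pupa to adult in both tissues, while RpS13 and RpL10Ab lost in both. For RpS13 the pupal and adult libraries of control IFM overlapped. RpLP1 lost in VNC, from 0.00 to -0.55 in controls. In control IFM its mean went from 0.19 to 0.29, but the stages overlapped (0.185, 0.179 and 0.199 in pupae, 0.307, 0.437 and 0.135 in adults). These relative levels are described without a test.

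**Figure D3:**
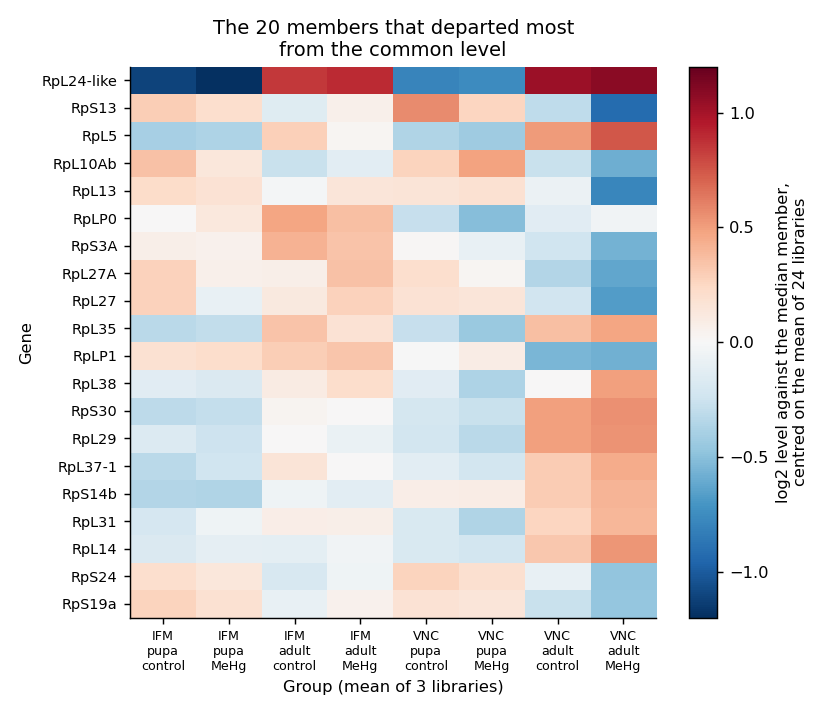
Mean log2 level relative to the median member in each of 8 groups (columns, 3 libraries each) for the 20 abundant members (rows) with the largest range, centred on the gene's mean over 24 libraries; red is higher and blue lower. RpL24-like runs from -1.11 in control pupal IFM to 1.08 in MeHg adult VNC.

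The MeHg comparisons ask whether larval exposure altered these genes. No member was called in pupal IFM (3.01% of all genes), adult IFM (7.6%), pupal VNC (0.531%) or adult VNC (0.0674%). At an unadjusted p under 0.05 there were 1, 10, 11 and 11 members. DESeq2 called 1, 1, 0 and 3, against 8.45%, 13.4%, 1.93% and 2.31% of all genes. Medians were -0.04, -0.12, 0.30 and 0.08, against 0.00, -0.01, 0.00 and 0.05 for all genes. With the length trend removed the medians were 0.18 and 0.06 in pupal and adult IFM and -0.04 in adult VNC, so that in these 3 comparisons the sign followed the correction. The difference in MeHg effect between stages was called for no member in IFM (2.69% of all genes) or VNC (0.00842%), with 0 and 11 members at an unadjusted p under 0.05. Between tissues it was called for no member in pupae (0.245% of all genes, and 6 members at an unadjusted p under 0.05) and for 1, RpL5, in adults (3.38%). Ranges of the control and MeHg libraries were separate for 3 members in pupal IFM (21.7% of all genes), 3 in adult IFM (27.3%), 0 in pupal VNC (12.5%) and 19 in adult VNC (26.1%). In adult IFM some marker lists also separated the groups. The fat body list was at 57384 to 69728 CPM in controls and 23700 to 43599 CPM with MeHg, and the muscle list at 63877 to 84933 CPM and 47162 to 59845 CPM. The haemocyte, glia and neuroblast lists were separate too, while the neuron, gut, testis, and ovary and early germline lists overlapped. The part of these differences was not tested.

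In pupal VNC, 84 of 86 members were above 0 with a median of 0.30. The size of the median rested on replicate 2 of the MeHg group: without it the median was 0.06, with 78 of 87 tested members above 0. In that library 69 of the 81 abundant members stood above all 5 other pupal VNC libraries, 10 within their range and 2 below. How many of all genes left that range was not counted, so the count is not read as a trait of the members. The ratio to the mean of the other 5 had a median of 1.47 but ran from 0.877 for RpL21 to 2.63 for RpL10Ab. RpL10Ab was read at 1116 CPM against 372 to 486, RpS20 at 825 against 293 to 364 and RpLP2 at 1144 against 409 to 542. RpLP0 was within the range, at 627 CPM against 586 to 684, as were RpS13 and RpL38. The summed neuron markers were 4481 CPM there and 5636 to 5951 CPM in the other 5, and the part of this difference was not tested.

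Adult IFM and adult VNC differed in RpL5. It was read at 1010, 1303 and 1374 CPM in control IFM and 1026, 821 and 866 CPM with MeHg, and at 1123, 1055 and 1159 CPM in control VNC and 1232, 1215 and 1363 CPM with MeHg. The IFM groups overlapped by 1 library and the VNC groups did not overlap. The log2 fold changes were -0.38 ± 0.12 (adjusted p 0.0891) and 0.24 ± 0.11 (adjusted p 0.366), and their difference was -0.61 ± 0.16 (adjusted p 0.0438). The call was lost when any of 8 of the 12 adult libraries was left out, with differences of -0.53 to -0.64, and also with the replicate number as a block (-0.61), a fit chosen after seeing the data.

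In the adult VNC, some members separated the groups without a call. RpS13 was read at 239, 326 and 234 CPM in controls and 163, 181 and 157 CPM with MeHg (log2 -0.61 ± 0.11, adjusted p 0.0929). RpL13 was read at 248, 266 and 223 CPM and 156, 160 and 123 CPM (-0.69 ± 0.22, adjusted p 0.285), and RpL38 at 213, 199 and 156 CPM and 259, 228 and 279 CPM (0.48 ± 0.11, adjusted p 0.181). DESeq2 called these 3, with adjusted p of 0.000268, 0.0347 and 0.0211, against 2.31% of all genes. The 19 members with separate ranges there compare with 26.1% of all genes, and their direction followed the scaling. On CPM levels 14 were lower and 5 higher with MeHg, whereas relative to the median member 9 of the 81 abundant members were separate and lower and 30 separate and higher. No share of all genes is given for the relative scale, so the 9 and 30 do not compare with the 26.1%. Marker lists of other cell types were also separate: gut at 201 to 476 CPM in controls and 7.23 to 187 CPM with MeHg, ovary and early germline at 3.05 to 5.60 CPM and 2.05 to 2.26 CPM, and glia at 4255 to 4332 CPM and 4391 to 4682 CPM. Their part was not tested.

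The paralog pairs fell into 2 kinds. In 5 pairs both forms had at least 100 counts in every library, and in the other 9 the minor form was nearly silent. Shares below are the minor form's part of the pair in counts per exonic kb. Ratios were compared by an exact two-sided permutation test of the log2 ratio, over 12 libraries with labels permuted within treatment (all 24 for MeHg), for 14 pairs in 5 comparisons and adjusted over those 70 tests; the smallest p that stage or tissue could give is 0.005. The test also passed for pairs such as RpL7-like and RpL7, with 1 count of the minor form in all, where the ratio is that of the pseudocount to the major form. Only the 5 pairs with at least 100 counts of each form in every library are therefore described.

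RpS15Ab carried the clearest tissue difference. RpS15A is a small subunit protein, and the b form is a single-exon gene (FBgn0033555; 2R, 10821676 to 10822399, plus strand) far from the a form on X (FBgn0010198; 13335637 to 13337705, minus strand). RpS15Ab was read at 48.6, 44.0 and 47.9 CPM in control pupal IFM, 34.7, 43.8 and 44.2 in adult IFM, 12.2, 10.9 and 12.4 in pupal VNC and 8.99, 8.22 and 9.54 in adult VNC. The 6 control IFM libraries lay above the 6 control VNC libraries. With stage it had -0.20 ± 0.11 in IFM (adjusted p 0.116) and -0.44 ± 0.18 in VNC (adjusted p 0.0509), while RpS15Aa went from 920 ± 41.4 to 504 ± 81.9 CPM (SD, n = 3) in IFM.

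The share of RpS15Ab in its pair therefore moved in opposite directions. It was 6.22% ± 0.05 in control pupal IFM and 9.60% ± 0.31 in control adult IFM, but 3.87% ± 0.25 in control pupal VNC (SD, n = 3) and 2.72%, 2.67% and 2.71% in the libraries of control adult VNC. The log2 ratio rose by 0.88 with adulthood in IFM (permutation p 0.005, adjusted 0.0194) and fell by 0.37 in VNC (permutation p 0.01, adjusted 0.0333). It was higher in IFM by 0.69 in pupae and 1.93 in adults, both with permutation p 0.005 and adjusted p 0.0194.

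In pupal IFM, RpS15Ab was read at 40.3, 36.0 and 36.4 CPM with MeHg, below each control but without passing the edgeR test, and the share was 5.21%, 4.91% and 4.76% against 6.24%, 6.17% and 6.26%. The edgeR log2 fold change was -0.36 ± 0.11 (adjusted p 0.0972), DESeq2 gave -0.35 (adjusted p 0.0356), and the exact permutation p of the ratio was 0.1, the smallest that 3 against 3 allow. Haemocyte markers summed to 185 to 235 CPM in these controls and 258 to 326 CPM with MeHg, and ovary and early germline markers to 3.57 to 4.72 CPM and 9.04 to 10.7 CPM; their part was not tested. Over all 4 tissue and stage combinations the log2 ratio with MeHg differed by -0.13 (permutation p 0.0624, adjusted 0.156), with differences from -0.35 to 0.06 in single combinations. MeHg shifted none of the 5 pairs described past the threshold.

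RpL24-like and RpL24 shifted with stage in both tissues. RpL24-like made up 15.8%, 18.3% and 18.0% of the pair in control pupal IFM and 48.7%, 37.1% and 39.8% in control adult IFM. In control VNC it made up 19.3%, 22.5% and 22.7% in pupae and 41.4%, 42.1% and 42.4% in adults. Pupal and adult libraries did not overlap in either tissue, with or without MeHg. The log2 ratio rose by 1.90 in IFM and 1.36 in VNC (both permutation p 0.005, adjusted 0.0194). Between tissues it was lower in IFM by 0.45 in pupae (adjusted permutation p 0.0194), and in adults the difference was 0.09 (adjusted permutation p 0.791).

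RpLP0-like went the other way. Its protein resembles yeast Mrt4, which holds the place of P0 on the large subunit precursor. The gene (FBgn0033485; 2R, 10098518 to 10099590, minus strand) was read at 57.5, 74.2 and 64.4 CPM in control pupal IFM, 15.9, 19.0 and 22.5 in adult IFM, 11.3, 10.5 and 11.3 in pupal VNC and 13.9, 13.6 and 14.4 in adult VNC. Pupal IFM thus stood alone. Its share of the pair with RpLP0 was 4.63% ± 1.02 in control pupal IFM and 2.17% ± 0.09 in control adult IFM (SD, n = 3), and the log2 ratio fell by 1.07 with stage (permutation p 0.005, adjusted 0.0194). In VNC the stage difference was 0.19 (adjusted permutation p 0.516). Against VNC, the ratio in IFM was higher by 0.71 in pupae and lower by 0.55 in adults (adjusted permutation p 0.0457 and 0.0194).

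The RpL34 and RpS14 pairs kept nearly fixed ratios. RpL34a took 25.2% to 27.5% of its pair in control pupal IFM and 28.5% to 30.2% in control adult IFM, and the log2 ratio rose by 0.20 in IFM and 0.21 in VNC with stage (both permutation p 0.005, adjusted 0.0194). RpS14a and RpS14b lie side by side on X (7933742 to 7934677 and 7934898 to 7935792, both on the plus strand) and encode the same protein. RpS14b took 43.6% to 51.3% over the 24 libraries. Its log2 ratio to RpS14a rose by 0.16 with stage in IFM (permutation p 0.015, adjusted 0.0457) and the differences in VNC (-0.07), pupae (-0.17) and adults (0.06) did not pass. Reads shared by such close copies make these shares uncertain.

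**Figure D4:**
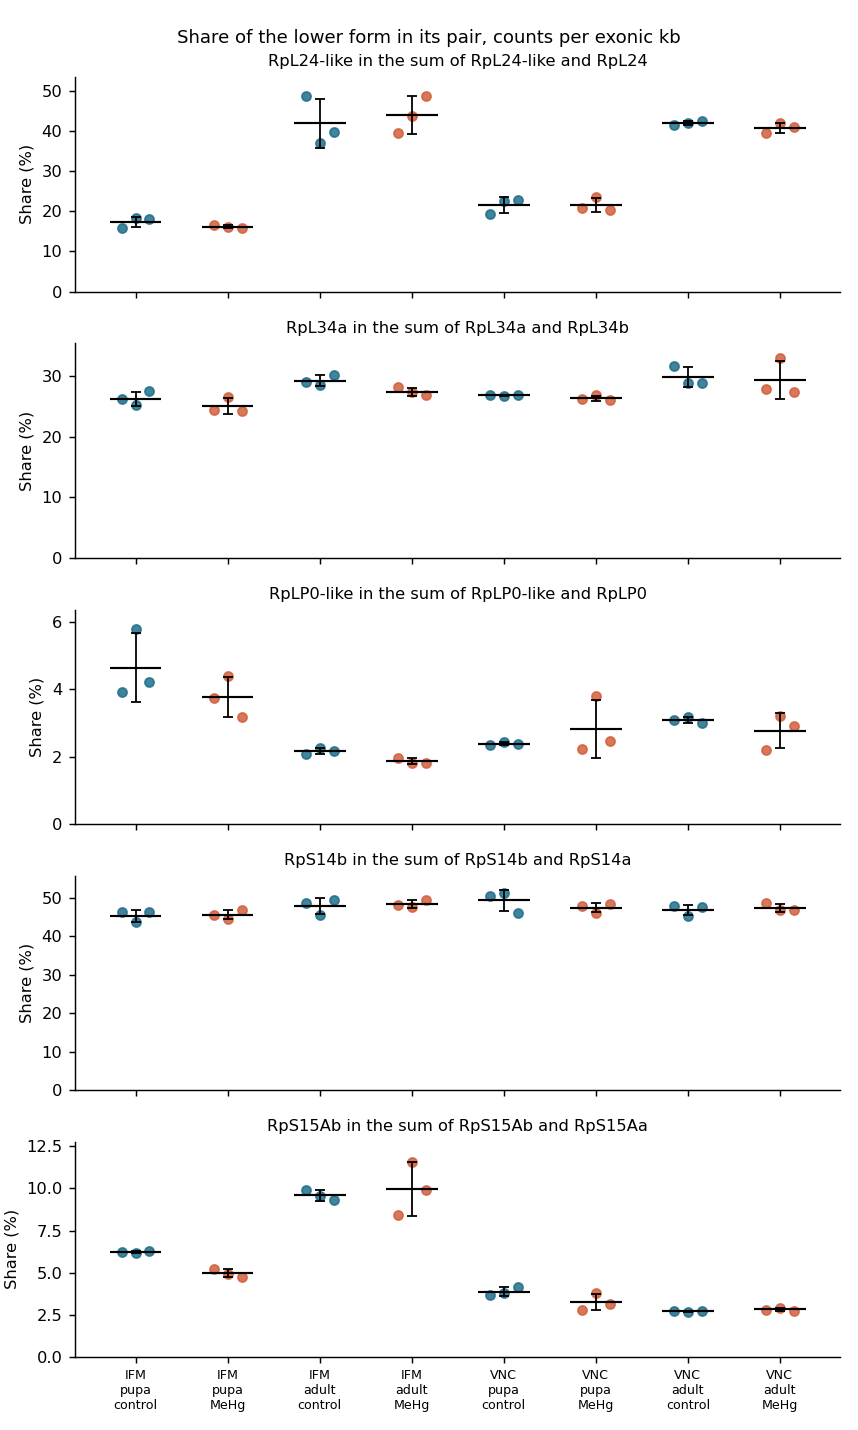
Share (%) of the lower form in the sum of both forms, in counts per exonic kb, for the 5 pairs with both forms at 100 counts or more in every library (blue points, control; orange points, MeHg; black line and bars, mean ± SD of 3 libraries). RpL24-like rises from 17.4% to 41.9% between control pupal and adult IFM, RpS15Ab is highest in adult IFM, RpLP0-like in pupal IFM, and RpS14b stays between 43.6% and 51.3%.

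Of the minor forms, 8 had between 1 and 140 counts over all 24 libraries. RpS19b had 140 counts, RpL10Aa 139, RpL22-like 127, RpS10a 82, RpL37-2 59, RpS28-like 29, RpS28a 6 and RpL7-like 1. RpL22-like and RpS19b are known in flies from the germ line. A library with 0 counts allows up to 3 counts, or 0.0764 to 0.242 CPM at these depths, counting error only. RpL7-like shares 1771 of its 1793 exonic bases with CG34164 on the same strand, and its level cannot be read.

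The counts of the 8 were uneven between libraries. Summed, they made 217 counts in replicate 2 of the control adult VNC and 0 to 52 in the other 23 libraries. In that library RpL10Aa had 86 counts, RpS19b 49, RpL22-like 38, RpL37-2 28 and RpS28-like 9, while the other 2 control adult VNC libraries held 0 to 5 of each. RpS10a did not stand out, with 7 counts there against 5 and 12, and RpS28a and RpL7-like had 0 there. The 9 testis markers summed to 74.2 CPM there and to 0.425 to 27.6 CPM elsewhere, with Mst87F at 13.2 CPM against 0.432 and 0.440 and betaTub85D at 30.7 CPM against 2.13 and 2.86 in the other 2 replicates of the group. None of the 9 testis markers had 0 counts in that library. The same held for other libraries, among them replicate 3 of the control adult VNC and every MeHg adult VNC library. The 6 ovary and early germline markers found summed to 5.60 CPM there, within the 1.87 to 10.7 CPM of the other libraries. Whether testis RNA bears on these minor forms was not tested.

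**Figure D5:**
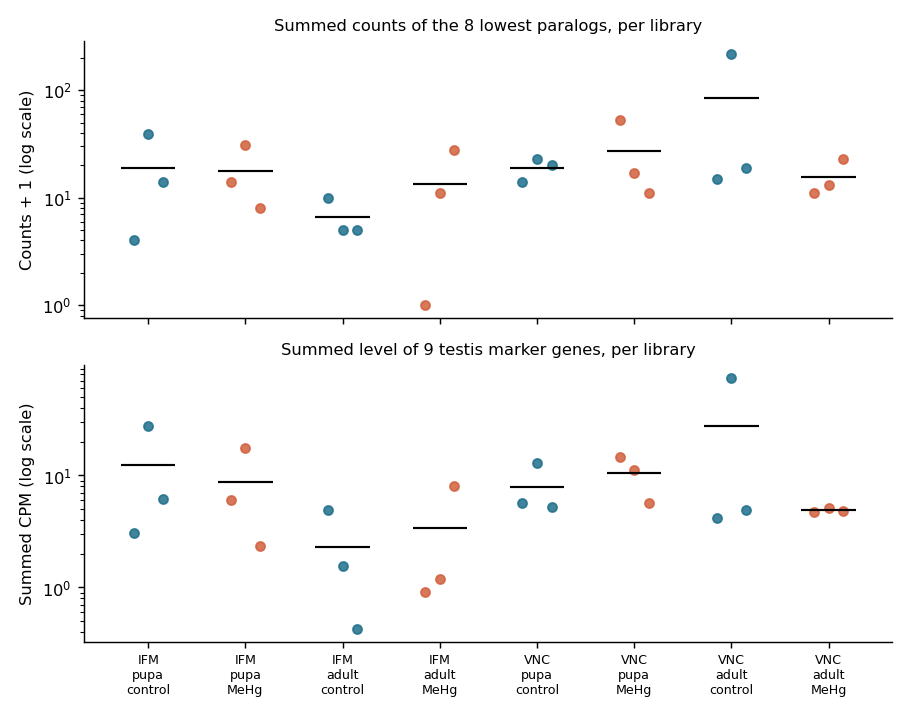
Summed counts of the 8 lowest paralogs plus 1 (top, log axis) and summed CPM of 9 testis marker genes (bottom, log axis) in each library of the 8 groups (blue, control; orange, MeHg; black line, mean of 3 libraries). Replicate 2 of the control adult VNC is highest in both, with 217 counts and 74.2 CPM.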

How the data were processed

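Whole-number counts per gene were deposited by the authors for 24 libraries, made with bcl2fastq 2.19.0, STAR 2.7.6a, Subread 2.0.1 and featureCounts on the dm6 build, per the submitters' processing notes; strand setting and treatment of multi-mapped reads are not given in the sources used here. Symbols came from RefSeq names through locus tags (17503 of 17545 genes) and exonic lengths from the union of exons in Ensembl BDGP6 (99.4%). The members and gene lists were chosen with earlier results of these data known. Counts were tested with edgeR 4.0.16 (TMM, filterByExpr, robust quasi-likelihood) in R 4.3.3, by tissue for MeHg and stage (12 libraries; 11347 genes in IFM, 11870 in VNC) and over all 24 libraries for tissue (12631 genes), p-values being adjusted by Benjamini-Hochberg across each fit. Tested members numbered 84, 86 and 86; those left out were minor paralogs, and a form counted in 1 group could enter through that group. CPM levels used TMM over 24 libraries. Paralog ratios used counts plus 0.5 per exonic kb.

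Besides all paralogs, RpLP0, RpLP1, RpLP2, RpS6 and the 3 highest and 3 lowest members by level, the text names per comparison up to 4 called members with the largest rise and fall at 5 CPM or more, and up to 3 called genes per list. RpL13, RpL38, RpL35 and the members of the pupal VNC library that stands apart were named after their values were seen, as were the relative levels. Alternatives were RLE scaling, no filter, DESeq2 1.42.0, ribosomal RNA and mitochondrial genes left out, the length trend removed, a replicate block, the title tag as a term (for MeHg only), fits of 6 or of all 24 libraries, and leaving out replicates in turn. The replicate block for MeHg by tissue and stage by tissue and the biogenesis list without Rrp1 were chosen after seeing the data. Scripts were tested on simulated data. No pair of replicates held identical counts. Nothing in the labels says that replicates came from separate cultures, so p-values measure the spread between these pools. Promoter and protein sequences were not analysed here. Results of 1 paralog family are not reported here.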

Additional observations from a re-analysis of the deposited data

Results flagged for a closer look

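The MeHg effect on RpL5 in adults differed between the tissues by a log2 fold change of -0.61, IFM minus VNC, which passed the test of the difference itself. Neither tissue's own change passed (edgeR adjusted p 0.0891 in IFM and 0.366 in VNC). The call was lost in 8 of 12 fits that left out 1 adult library, and with the replicate number as a block (-0.606). The stage effect in controls differed between tissues for 77 of the 86 members tested, each with the more negative change in IFM.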

How the results depend on the processing

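With the length trend removed, 2 members were called for MeHg in pupal IFM and 3 for MeHg by tissue in adults. The share of all genes called in those fits is not given here. The same correction changed the sign of the members' median in 5 comparisons, to 0.182 for MeHg in pupal IFM, 0.064 in adult IFM, -0.043 in adult VNC, -0.344 for IFM against VNC in adults and 0.075 for MeHg by tissue in adults. It moved the median to -1.24 for stage in IFM, 0.851 for tissue in pupae and -1.145 for stage by tissue, and turned RpLP0-like to -0.202 for tissue in adults; the cause was not tested. RLE scaling gave a median of 1.534 for tissue in pupae. DESeq2 called 1, 1 and 3 members for MeHg in pupal IFM, adult IFM and adult VNC. The fit of all 24 libraries called 2 in adult IFM, and the fit of 6 libraries called 2 in adult VNC. For the fits of 24 and of 6 libraries the share of all genes called is not given here, so these counts are not read as a trait of the members.

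With a replicate left out, calls ranged from 0 to 1 for MeHg in adult IFM, from 0 to 4 for MeHg by tissue in adults and from 29 to 62 for tissue in adults. Shares of all genes called in these fits are not given here, so the ranges are not read as a trait of the members. Medians ranged from 0.063 to 0.384 for MeHg in pupal VNC, from 1.3 to 1.547 and from 0.244 to 0.535 for tissue in pupae and adults, and from -0.505 to -0.157 for MeHg by tissue in pupae. For MeHg by stage in VNC they ranged from -0.41 to 0.021, the last without replicate 2 of the MeHg pupal VNC. Of 411 alternative values for 33 called gene-and-comparison values, 393 kept direction and side of the threshold, 17 lost the call and 1 changed sign.

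Replicate numbers gave no common sign: same-numbered libraries correlated at -0.31 to 0.322. Every IFM and VNC pair was positive in the MeHg pupae (0.202, 0.117 and 0.322) and in the MeHg adults (0.241, 0.082 and 0.115). The control and MeHg pairs of the adult VNC were positive too (0.276 and 0.17). With the numbers as a block, no member was called for MeHg (0 in each comparison), and 82 and 28 were called for stage in IFM and VNC and 83 and 37 for tissue in pupae and adults. In block fits chosen after seeing the data, MeHg by tissue had 0 called in pupae and 0 in adults, where RpL5 lost its call at -0.606, and stage by tissue had 78. Shares of all genes called in the block fits are not given here, so their counts are not read as a trait of the members. Over the 6 pairs whose minor form was counted in every library (the 5 described and 1 not reported here), pair ratios that passed numbered 9 for stage, 10 with a pseudocount of 5 and 6 without replicate 4; other replicates left too few permutations to pass and are not given. Counts limit the minor paralogs, whose levels rest on few reads.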
